A study of Rattus norvegicus with 4 samples.

Results

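The respiratory chain and ATP synthase of rat skeletal muscle were followed here through 46 nuclear genes that code for their subunits. The genes were chosen by name: 17 belong to complex I, 4 to complex II, 6 to complex III, 9 to complex IV and 9 to ATP synthase, and the last is Cycs, the gene for cytochrome c. Each gene was matched through its RefSeq accession to the probes of a one-colour oligonucleotide array, and older names such as Atp5a1 counted as the same gene. A probe was found for 43 of the 46, among 13324 genes or accessions measured well above background on at least 2 arrays. No probe was matched for Cyc1 of complex III, Cox7a1 of complex IV or Atp5mc3 of ATP synthase.

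Complex I (NADH dehydrogenase) and complex II (succinate dehydrogenase) feed electrons into ubiquinone, complex III passes them to cytochrome c, and complex IV (cytochrome c oxidase) hands them to oxygen. Complexes I, III and IV pump protons across the inner mitochondrial membrane, and ATP synthase uses that gradient to make ATP. In skeletal muscle the system is dense in oxidative fibres, and endurance training is known to raise its content.

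Total RNA of skeletal muscle was hybridised to 4 arrays on 1 slide. The SPORTS rat is a hyperactive mutant line on a Wistar background. The wild type (WT), sedentary Wistar rats, had 2 arrays, while SPORTS rats had 1 array after exercise and 1 kept sedentary; all were males of 15 weeks. The labels name neither the mutation, the muscle sampled nor the kind of exercise. Whether the WT pair stems from separate animals is not given either, so a p-value reflects only how far these 2 arrays differ, which may be technical. Because each SPORTS group had 1 array, that animal, its muscle sample and its group cannot be told apart. In the limma fit with 3 groups the spread came from the WT pair alone (1 residual degree of freedom), and each single SPORTS array was taken to vary as that pair does.

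By array, the processed signal had a median of 207 and 204 in WT, 138 after exercise and 212 in the sedentary SPORTS rat, and between 54.0% and 58.8% of spots were well above background. A level below is the log2 processed signal minus the 75th percentile of its array, so that 0 is the signal of that percentile. All 43 matched subunit genes were well above background on all 4 arrays. The skeletal muscle markers Acta1, Ckm, Mb, Des and Myod1 were also well above background on all 4. With 4 arrays in all, precision is limited by their number.

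Promoter sequences are shown for 3 subunit genes that are among the most changed in their complexes and that hold a match to a motif of factors known to act on nuclear respiratory genes. Of the 46 genes, 42 matched a 300-base promoter window around the annotated start in RefSeq (build GRCr8). Capitals mark the matches, which were searched on both strands. The motifs were an NRF1 motif with a free middle base, CCGGAAG (GABPA and other ETS factors), AANATGGC (YY1) and TCAAGGTCA (estrogen-related receptors). The windows are chr7:10110449-10110748 on the minus strand for Ndufs7, chr5:158547684-158547983 on the plus strand for Sdhb and chr8:118467973-118468272 on the plus strand for Uqcrc1.
Ndufs7: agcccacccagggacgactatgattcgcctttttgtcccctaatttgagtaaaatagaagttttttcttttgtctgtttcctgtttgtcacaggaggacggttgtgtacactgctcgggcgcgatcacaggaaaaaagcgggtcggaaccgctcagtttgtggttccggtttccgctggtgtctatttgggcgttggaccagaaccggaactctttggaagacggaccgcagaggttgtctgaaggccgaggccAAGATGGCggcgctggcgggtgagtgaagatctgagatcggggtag
Sdhb: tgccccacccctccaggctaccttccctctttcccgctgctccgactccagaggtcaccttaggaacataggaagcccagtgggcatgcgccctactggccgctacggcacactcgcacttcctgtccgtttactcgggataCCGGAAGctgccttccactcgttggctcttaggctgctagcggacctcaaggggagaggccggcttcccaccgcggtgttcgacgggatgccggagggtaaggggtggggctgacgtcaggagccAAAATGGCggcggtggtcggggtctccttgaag
Uqcrc1: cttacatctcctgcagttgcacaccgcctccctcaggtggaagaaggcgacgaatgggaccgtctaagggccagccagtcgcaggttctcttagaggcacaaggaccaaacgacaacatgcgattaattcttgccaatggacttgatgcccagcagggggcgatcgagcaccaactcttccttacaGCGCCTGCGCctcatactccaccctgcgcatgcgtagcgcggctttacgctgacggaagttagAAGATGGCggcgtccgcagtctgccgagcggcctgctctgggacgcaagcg

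The match in Ndufs7 is to the YY1 letters at bases 255 to 262 of the window. Sdhb holds the ETS letters at bases 143 to 149 and the YY1 letters at bases 268 to 275. Uqcrc1 holds the NRF1 letters at bases 187 to 196 and the YY1 letters at bases 250 to 257. The YY1 letters were found in 17 of the 42 members' windows (40.5%) and in 6.96% of all 33469 promoters of that length. These letters include ATG, and the windows run past the annotated start. The ETS letters were found in 12 members (28.6%) against 8.75% of all promoters, the NRF1 letters in 6 (14.3%) against 4.25%, and the receptor letters in 2 (4.76%) against 0.433%. A match is only a description of the letters in the window.

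The subunit genes moved little between the arrays, in a comparison where many other genes moved a lot. None of the 43 differed 2-fold between the exercised and the sedentary SPORTS array, where 21.9% of all genes did. None differed 2-fold from the WT mean on the exercised array (20.6% of all genes) or on the sedentary array (5.61% of all genes). The largest of these differences was 1.73-fold, in Uqcrq between the exercised and the sedentary array. The 2 differences from WT share the same WT arrays.

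The middle of the distribution shows the same. The median absolute log2 difference over the 43 genes was 0.04 between the WT arrays, 0.10 between sedentary SPORTS and WT, and 0.12 between exercised SPORTS and WT. Over all genes tested these medians were 0.07, 0.20 and 0.41. Between the exercised and the sedentary array, 41 of the 43 genes lay within 0.5 on the log2 scale, against 54.4% of all genes. Most subunit probes are bright, so genes with a WT mean of at least 3.68, that of Ndufs8, which every member but Uqcrq reaches, were described as well, a threshold chosen after seeing the data. Of these 1847 genes, 19.4% differed 2-fold between the exercised and the sedentary array.

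**Figure D1:**
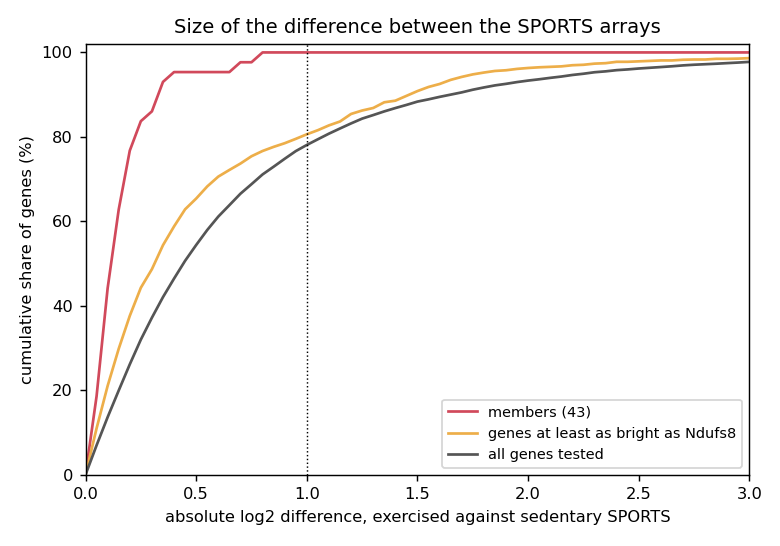
Cumulative share of genes (vertical axis, %) by absolute log2 difference between the exercised and the sedentary SPORTS array (horizontal axis), for the 43 subunit genes, for genes at least as bright as Ndufs8 and for all genes tested. The dotted line marks a 2-fold difference. The curve of the subunit genes is complete before that line, while 21.9% of all genes lie beyond it.

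**Figure D2:**
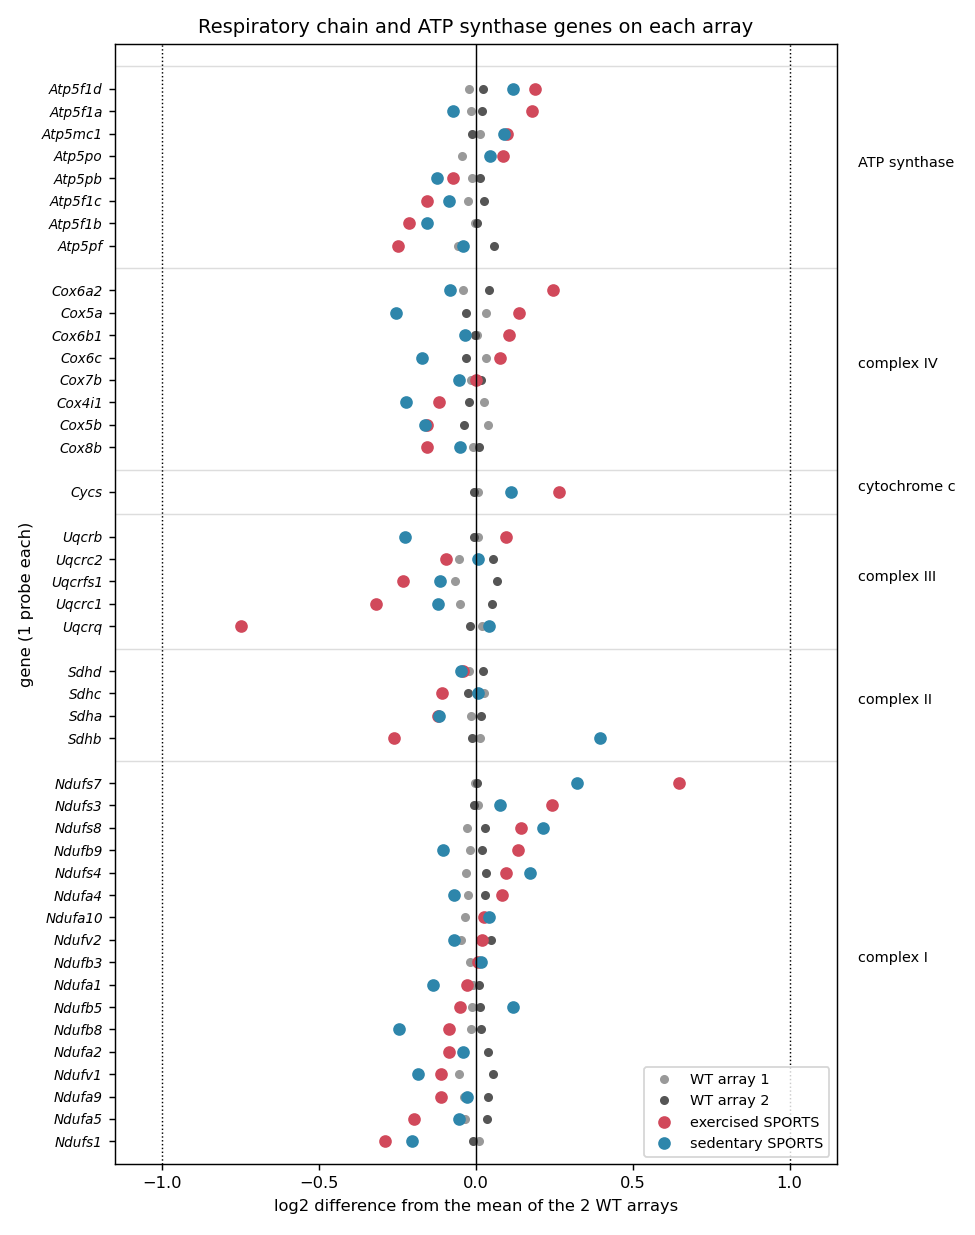
Log2 difference of each subunit gene from the mean of the WT arrays (horizontal axis), 1 probe per gene, with 1 point for each of the 4 arrays. The dotted lines mark 2-fold. Ndufs7 lies farthest to the right and Uqcrq farthest to the left, both on the exercised array, and no point reaches a dotted line.

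With both SPORTS arrays as 1 group against the WT pair, limma called no gene at an adjusted p under 0.05 (0.0% of all genes, with 981 at an unadjusted p under 0.05). The 43 subunit genes had adjusted p-values from 0.705 to 0.992 in that fit, and none had an unadjusted p under 0.05. In the fit with 3 groups, limma called none of the 43 on the sedentary array (6.25% of all genes), with 6 at an unadjusted p under 0.05. It called 3 of the 43 on the exercised array (53.2% of all genes), namely Ndufs7, which was higher (27.3% of all genes), and Ndufs1 and Uqcrq, which were lower (26.0%). Both SPORTS arrays lay on the same side of both WT arrays in 24 of the 43 genes, 8 above (21.4% of all genes) and 16 below (22.3%), against 43.7% of all genes on either side.

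In complex I the iron-sulphur subunit Ndufs7 rose on the exercised array and Ndufs1 fell, while the other 15 genes of the complex were not called in limma. Ndufs7, which carries the last iron-sulphur cluster before ubiquinone, was at 6.16 and 6.16 in WT, 6.81 on the exercised array and 6.48 on the sedentary array. Both SPORTS arrays lay above both WT arrays, the exercised one highest. The exercised difference was 0.65 ± 0.06 (SE), or 1.57-fold, with adjusted p = 0.0109 in limma. The sedentary array was 1.25-fold above WT and was not called (adjusted p = 0.0811, limma).

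Ndufs1, the largest subunit of the complex and part of the arm that takes electrons from NADH, was at 5.35 and 5.34 in WT, 5.05 on the exercised array and 5.14 on the sedentary array. Both SPORTS arrays lay below both WT arrays. The exercised difference was -0.29 ± 0.06 (SE) with adjusted p = 0.0439 in limma, and it was not called when arrays were scaled by their median or when no filter on dim probes was used. Ndufs3, a core subunit next to the ubiquinone site, was at 5.50 and 5.49 in WT, 5.74 on the exercised array and 5.57 on the sedentary array. It lay above both WT arrays on both SPORTS arrays, with an exercised difference of 0.24 ± 0.06 (SE) that missed the threshold (adjusted p = 0.0605, limma).

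The smallest exercised differences in complex I were those of Ndufb3 and Ndufv2. Ndufb3, an accessory subunit of the membrane arm, was at 6.70 and 6.74 in WT, 6.73 on the exercised array and 6.74 on the sedentary array. Ndufv2, an iron-sulphur subunit of the NADH-oxidising arm, was at 6.93 and 7.02 in WT, 6.99 on the exercised array and 6.90 on the sedentary array. The exercised array lay between the WT arrays for both genes. Over all 17 genes the exercised differences ran from -0.29 to 0.65 with a median of 0.01, which became 0.23 with median scaling and -0.28 with quantile normalization. The sedentary differences ran from -0.24, in the membrane arm subunit Ndufb8, to 0.32 in Ndufs7, with a median of -0.04 that turned to 0.03 with quantile normalization.

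By region of complex I, the median exercised difference was -0.09 over 5 genes of the NADH-oxidising module, 0.14 over 5 genes of the ubiquinone-reducing module and -0.01 over 6 genes of the membrane arm. The ubiquinone-reducing module spanned nearly the whole range of the complex, since it holds Ndufs7 and Ndufs3, which were higher on the exercised array, as well as Ndufa5, at -0.20.

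All 4 genes of complex II lay below both WT arrays on the exercised array (45.7% of all genes), by small amounts. Its exercised median was -0.11, which turned to 0.11 with median scaling. Sdhb, the iron-sulphur subunit, was at 5.68 and 5.66 in WT, 5.41 on the exercised array and 6.07 on the sedentary array. The SPORTS arrays thus lay on opposite sides of the WT pair. Sdhb was 1.32-fold higher than WT on the sedentary array (adjusted p = 0.0659, limma) and 1.58-fold lower on the exercised than on the sedentary array, which has no replicate check. Its difference from WT on the exercised array was -0.26 ± 0.06 (SE) with adjusted p = 0.0537 in limma, so neither difference from WT was called.

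Sdha, the subunit that oxidises succinate, was at 5.48 and 5.51 on the WT arrays and at 5.37 on both SPORTS arrays. Sdhc, a membrane anchor, was at 4.52 and 4.47 in WT, 4.39 on the exercised array and 4.50 on the sedentary array. Sdhd, the other anchor, was at 5.85 and 5.89 in WT, 5.83 on the exercised array and 5.82 on the sedentary array. None of these 3 genes was called in limma, and only Sdha lay more than 0.1 below the WT mean on both SPORTS arrays.

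Among the members, complex III had the lowest median of the 5 complexes on the exercised array, at -0.23 over 5 genes. Relative to the median of all 43 subunit genes it was the lowest complex under each of the 6 ways of processing compared, by between -0.29 and -0.09. Median scaling shifts all genes of an array alike and so could not change this order, and the authors' table holds the same processed signal. In absolute terms the complex III median was near 0 with median scaling (-0.008) and -0.41 with quantile normalization. Without Uqcrq, an alternative added after seeing the data, it was -0.16. These medians leave out the further complex III subunits Uqcr10, Uqcr11 and Uqcrh. Those were at 0.33, 0.25 and -0.07 on the exercised array, and the order of the complexes with them included was not tested.

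Uqcrq, a small ubiquinone-binding subunit, was at -1.47 and -1.50 in WT, -2.24 on the exercised array and -1.44 on the sedentary array. Only the exercised array stood apart. The exercised difference was -0.75 ± 0.07 (SE), or 1.68-fold lower, with adjusted p = 0.00941 in limma. Its probe was below the 75th percentile of every array, though well above background on all 4. Ndufs7 and Uqcrq were called on the exercised array under all 9 settings of the fit, with differences of 0.37 to 0.87 and of -0.75 to -0.49.

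The other complex III genes were not called. Uqcrc1, a core subunit, was at 5.56 and 5.66 in WT, 5.29 on the exercised array and 5.49 on the sedentary array, an exercised difference of -0.32 ± 0.08 (SE) with adjusted p = 0.0590 in limma. Uqcrfs1, the Rieske iron-sulphur protein, was at 6.22 and 6.36 in WT, 6.06 on the exercised array and 6.18 on the sedentary array. Both genes lay below both WT arrays on both SPORTS arrays. Uqcrc2, the other core subunit, was at 5.42 and 5.53 in WT, 5.38 on the exercised array and 5.48 on the sedentary array. Uqcrb, a subunit near the ubiquinone site, was at 6.67 and 6.66 in WT, 6.76 on the exercised array and 6.44 on the sedentary array. Uqcrb thus lay above the WT pair on the exercised array and below it on the sedentary array. A second, dimmer probe of Uqcrb was 2.85-fold higher than WT on the exercised array and differed by 0.17 on the sedentary array, against -0.23 for the brighter probe there. The probes of this gene thus disagree in size on the exercised array and in direction on the sedentary array.

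Cycs, the mobile carrier between complexes III and IV, was at 6.36 and 6.35 in WT, 6.62 on the exercised array and 6.47 on the sedentary array. Both SPORTS arrays lay above both WT arrays. The exercised difference of 0.27 ± 0.06 (SE) missed the threshold (adjusted p = 0.0505, limma) and was -0.021 with quantile normalization. A second Cycs probe gave an exercised difference of 0.18 and a sedentary difference of -0.07.

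Complex IV genes were slightly lower on the sedentary array. All 8 lay below both WT arrays there (45.1% of all genes), with differences of -0.25 to -0.04 and a median of -0.12, and none was called in limma, with 2 at an unadjusted p under 0.05. The median was -0.09 with median scaling but about 0 (-0.00027) with quantile normalization. On the exercised array 4 genes were above the WT mean and 4 below, with a median of 0.04 that turned to -0.38 with quantile normalization. Of the 8, 7 were higher on the exercised than on the sedentary array with 75th percentile scaling (6967 of all 13324 genes tested). This count depends on the scaling. Over all subunit genes, 1 was higher and 42 were lower in that comparison with quantile normalization, so most of the 8 were lower there. With median scaling 39 subunit genes were higher and 4 lower.

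Cox6a2, the heart and muscle form of subunit 6a, was at 8.14 and 8.23 in WT, 8.43 on the exercised array and 8.10 on the sedentary array. Cox5b, a subunit on the matrix side, was at 7.87 and 7.80 in WT, 7.68 on the exercised array and 7.67 on the sedentary array. Cox8b, the heart and muscle form of subunit 8, was at 7.86 and 7.88 in WT, 7.72 on the exercised array and 7.82 on the sedentary array. These were the largest exercised differences of the complex, at 0.24 ± 0.08, -0.16 ± 0.07 and -0.16 ± 0.06 (SE), with adjusted p-values in limma of 0.0849, 0.180 and 0.138. Cox6a2 turned to -0.087 with quantile normalization, and the other two turned to 0.070 and 0.069 with median scaling. Cox7b was at 6.56 and 6.59 in WT, 6.57 on the exercised array and 6.52 on the sedentary array. Cox6c was at 7.78 and 7.71 in WT, 7.82 on the exercised array and 7.57 on the sedentary array. These small membrane subunits had the smallest exercised differences, and the lower value of Cox6c was on the sedentary array. Cox5a had the lowest sedentary difference of all 43 genes, at 6.24 and 6.18 in WT, 6.34 on the exercised array and 5.95 on the sedentary array.

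Several complex IV subunits have paired forms whose use differs between tissues. Of 5 alternative forms measured, 1 rose and 2 fell on the exercised array in limma (53.2% of all genes called). Cox7a2, at -0.0065, and Cox4i2, at 0.04, were not called. Cox6a1, the widely expressed partner of Cox6a2, was at 5.999 and 5.973 in WT, 5.47 on the exercised array and 6.17 on the sedentary array, an exercised difference of -0.52 ± 0.06 (SE) with adjusted p = 0.0159 in limma. Cox8a, the widely expressed partner of Cox8b, was at 5.29 and 5.25 in WT, 4.55 on the exercised array and 5.54 on the sedentary array, a difference of -0.72 ± 0.07 (SE) with adjusted p = 0.0101 in limma. Both widely expressed forms thus fell on the exercised array, while on the sedentary array they lay above the WT pair. Cox6b2, known from testis, was at 2.40 and 2.24 in WT, 3.22 on the exercised array and 2.03 on the sedentary array. It rose by 0.91 ± 0.10 (SE) on the exercised array with adjusted p = 0.0138 in limma, whereas the 3 probes of its partner Cox6b1 differed from WT by 0.10 to 0.14. All 3 of these changes kept their direction under median scaling, quantile normalization and the normexp background.

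The difference within each array between 2 forms does not depend on a factor common to the array. The log2 ratio of Cox6a2 to Cox6a1 was 0.76 higher on the exercised array than on the WT arrays, with 0.63 to 0.76 over the ways of processing, and 0.27 lower on the sedentary array (difference of -0.27). The log2 ratio of Cox8b to Cox8a was 0.57 higher on the exercised array, with 0.26 to 0.58 over the ways of processing, and its sedentary difference was -0.32. For Cox6b1 to Cox6b2 the exercised difference was -0.80 and the sedentary difference 0.25. The exercised difference for Cox4i1 to Cox4i2 was -0.16, and -0.64 with quantile normalization. The ratio of Atp5mc1 to Atp5mc2, genes for the same c subunit of ATP synthase, differed by 0.10 on the exercised array, with a range of -0.03 to 0.10. A ratio shows unequal change of the 2 probes and not that either was constant.

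**Figure D3:**
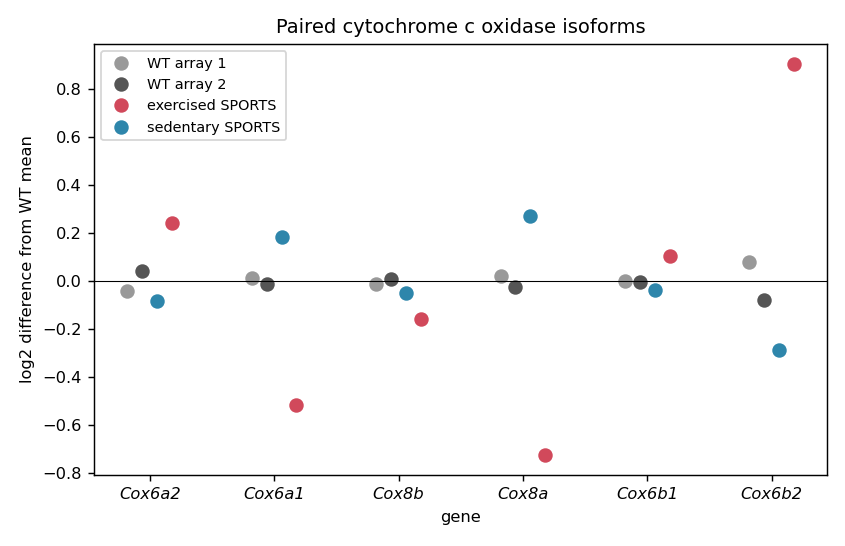
Log2 difference from the WT mean (vertical axis) of paired cytochrome c oxidase genes (horizontal axis), with 1 point per array. On the exercised array Cox6a1 and Cox8a lie at -0.52 and -0.72 while their muscle partners Cox6a2 and Cox8b lie at 0.24 and -0.16, and Cox6b2 lies at 0.91.

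ATP synthase genes scattered evenly around the WT level, 4 above and 4 below on the exercised array. The median exercised difference was 0.01 over 8 genes, which became 0.23 with median scaling and -0.37 with quantile normalization. The sedentary median was -0.06, and no gene of the complex was called in limma on either SPORTS array, with 0 at an unadjusted p under 0.05 on the sedentary and 1 on the exercised array. Atp5pf, coupling factor 6 of the peripheral stalk, was at 6.17 and 6.28 in WT, 5.98 on the exercised array and 6.18 on the sedentary array. Atp5f1b, the catalytic beta subunit, was at 5.60 and 5.60 in WT, 5.38 on the exercised array and 5.44 on the sedentary array. Atp5f1d, the delta subunit of the central stalk, was at 6.06 and 6.10 in WT, 6.27 on the exercised array and 6.19 on the sedentary array. Their exercised differences were -0.25 ± 0.09, -0.22 ± 0.06 and 0.19 ± 0.07 (SE), with adjusted p-values of 0.103, 0.0752 and 0.106 in limma.

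Atp5pb, subunit b of the peripheral stalk, was at 7.45 and 7.48 in WT, 7.39 on the exercised array and 7.34 on the sedentary array. Atp5po, the subunit that confers oligomycin sensitivity, was at 7.15 and 7.24 in WT, 7.28 on the exercised array and 7.24 on the sedentary array. These were the smallest exercised differences, at -0.07 and 0.08. The alpha subunit Atp5f1a was at 7.90 and 7.93 in WT, 8.09 on the exercised array and 7.84 on the sedentary array. The alpha and beta subunits, which form the catalytic head together, thus lay on opposite sides of the WT pair on the exercised array with 75th percentile scaling, but both were lower with quantile normalization (-0.31 and -0.42) and both were above the WT mean with median scaling (0.40 and 0.010).

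How the arrays are put on one scale sets the direction of the subunit genes as a group on the exercised array. Scaled by the 75th percentile, 19 of the 43 genes were above the WT mean and 24 below, with a median of -0.04. Scaled by the array median, 37 were above and 6 below, with a median of 0.18. After quantile normalization 2 were above and 41 below, with a median of -0.31. Median scaling moved the median of all genes from 0.00 to 0.23, close to the shift of the subunit median. Under quantile normalization, by contrast, the median of all genes was -0.03. The number of subunit genes called in limma on the exercised array was 16 with median scaling (15 higher and 1 lower, 60.6% of all genes called) and 25 with quantile normalization (1 higher and 24 lower, 52.7%). The exercised difference of 18 single members changed sign with median scaling, none of them called, and that of 17 did so with quantile normalization, 6 of them called as lower. Among the latter, Atp5f1a, Atp5mc1, Cox6c and Ndufb9 were called as higher with median scaling. No direction is therefore given for the group as a whole, and the side on which a member with a small difference lay holds for 75th percentile scaling. No member differed 2-fold between the SPORTS arrays under any setting run.

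**Figure D4:**
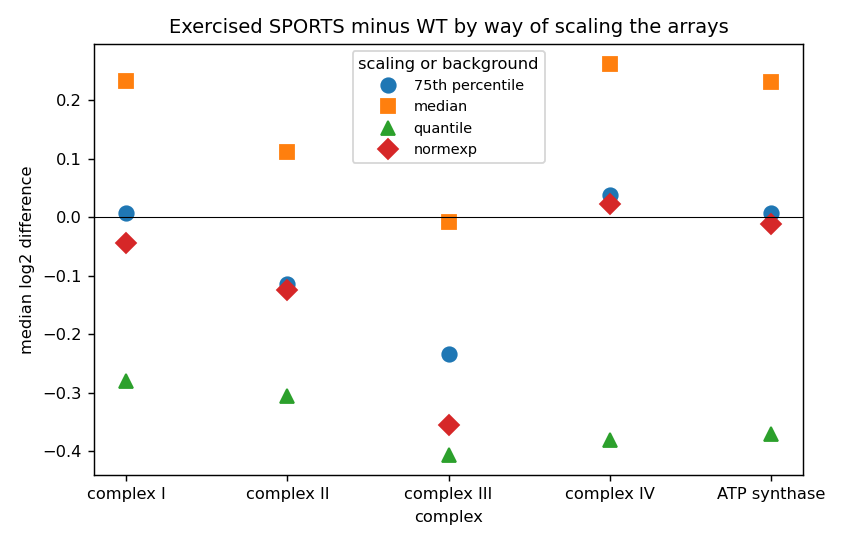
Median log2 difference between the exercised SPORTS array and the WT mean (vertical axis) for each of the 5 complexes (horizontal axis), with 1 symbol for each way of scaling the arrays or correcting the background. Complex IV has a median of 0.04 with 75th percentile scaling, 0.26 with median scaling and -0.38 with quantile normalization. Complex III, over its chosen members, lies lowest with each.

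Genes around the respiratory chain were described from lists chosen by function. Among all genes tested, limma called 53.2% on the exercised array, 60.6% with median scaling and 52.7% with quantile normalization, and 6.25% on the sedentary array. Of 15 further complex I subunits measured, 3 rose and 2 fell on the exercised array in limma (median of 0.05), against 7 and 0 with median scaling (0.27) and 1 and 3 with quantile normalization (-0.14). Ndufa7 rose by 0.78 (adjusted p = 0.00844, limma), Ndufv3 by 0.43 (adjusted p = 0.0215, limma) and Ndufb4 by 0.38 (adjusted p = 0.0266, limma), and the last 2 were not called after quantile normalization. Of 11 further subunits of complexes III and IV and ATP synthase, 1 rose and 1 fell, against 4 and 0 with median scaling and 0 and 6 with quantile normalization (medians of 0.04, 0.26 and -0.35). The former was Uqcr10, at 0.33, whose direction turned to -0.20 with quantile normalization. The latter was Cox7a2l, a factor of respiratory supercomplexes, at -0.38, and Atp5mg, at -0.30, was not called. On the sedentary array limma called none of these 26 genes, with 2 at an unadjusted p under 0.05.

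Assembly factors, which build the complexes without staying in them, included larger differences than any subunit gene. Of 33 measured, 11 rose and 8 fell on the exercised array (53.2% of all genes called), against 17 and 4 with median scaling (60.6%). On the sedentary array 1 fell (6.25% of all genes called). The median was 0.08 on each array, and on the exercised array it went to 0.30 with median scaling and about 0 with quantile normalization. Acad9, a complex I assembly factor, was at 4.49 and 4.58 in WT, 1.06 on the exercised array and 2.47 on the sedentary array. It fell by 3.48 on the log2 scale on the exercised array (adjusted p = 0.00425, limma) and fell by 2.07 on the sedentary array (adjusted p = 0.0323, limma). Cox19 rose by 1.26 on the exercised array, with adjusted p = 0.00548 in limma. Cox20 was not well above background on either WT array and was at least 2.12-fold higher on the exercised array, against the lowest signals well above background in WT (adjusted p = 0.0230, limma).

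Of 11 genes that express the mitochondrial genome, 4 rose and 1 fell on the exercised array (53.2% of all genes called). The counts were 6 and 1 with median scaling (60.6%) and 5 and 2 with quantile normalization (52.7%). On the sedentary array limma called none (6.25% of all genes), with 2 at an unadjusted p under 0.05. Slirp, an RNA-binding protein, rose by 0.63, and Polg, the catalytic subunit of the mitochondrial DNA polymerase, by 0.58, while its accessory subunit Polg2 was 0.53 lower (difference of -0.53). Of 14 regulators of mitochondrial biogenesis, 4 rose and 4 fell on the exercised array (53.2% of all genes called), against 8 and 3 with median scaling (60.6%). Prkaa2 and Prkaa1, the catalytic subunits of AMP-activated kinase, moved in opposite directions, at 1.39 and -1.21, and Sirt3, a mitochondrial deacetylase, was at -1.26. The coactivator Ppargc1a was at 0.09 and was not called. On the sedentary array limma called only Perm1 in this list, close to the threshold. Perm1 was at 0.79 there and at -0.40 on the exercised array, so the SPORTS arrays lay on opposite sides of the WT pair.

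Of 21 carriers and other mitochondrial membrane proteins, which include pores and import receptors of the outer membrane, 5 rose and 5 fell on the exercised array (53.2% of all genes called). The counts were 9 and 2 with median scaling (60.6%) and 3 and 6 with quantile normalization (52.7%). On the sedentary array limma called none (6.25% of all genes), with 1 at an unadjusted p under 0.05. Ucp3, a muscle uncoupling protein, was at 2.36 and 2.56 in WT, 4.78 on the exercised array and 1.54 on the sedentary array, an exercised difference of 2.32 (adjusted p = 0.00527, limma). Slc25a4, the muscle form of the ADP/ATP carrier, was at 4.91 and 4.97 in WT, 6.60 on the exercised array and 4.86 on the sedentary array, a difference of 1.66 (adjusted p = 0.00468, limma). Atp5if1, the inhibitor of ATP synthase, was at 4.71 and 4.68 in WT, 3.70 on the exercised array and 4.62 on the sedentary array, a difference of -1.0003 (adjusted p = 0.00642, limma). All 3 stood apart on the exercised array and kept their direction under each scaling.

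Markers of fibre type moved far more than the subunits. For the counts below, the shares of all genes called were 53.2% on the exercised array and 6.25% on the sedentary array. Of 11 slow fibre genes, 10 were called lower on the exercised array (median of -2.42) and 2 higher on the sedentary array (median of -0.04). Myl2 was at -4.06 and Myh7b at -3.44 on the exercised array. Of 13 fast fibre genes, 11 were called higher and 1 lower on the exercised array (median of 1.22). After quantile normalization these counts were 7 and 1, with a median of 0.72. On the sedentary array 7 fast fibre genes were called lower (median of -1.86). Pvalb and Myh4 were at 7.52 and 7.40 on the exercised array. Over the linear signals of each list, in multiples of the array's 75th percentile, the slow fibre sum was 2095 and 2041 in WT, 447 on the exercised array and 1968 on the sedentary array, and the fast fibre sum was 1633 and 1717, 4033 and 564. The same sum over the 43 subunit genes was 4345 and 4422 in WT, 4427 on the exercised array and 4188 on the sedentary array. In such bulk samples fewer cells or fibres of a type and less RNA per cell cannot be told apart. The part of fibre type in the differences of single subunits was not tested.

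**Figure D5:**
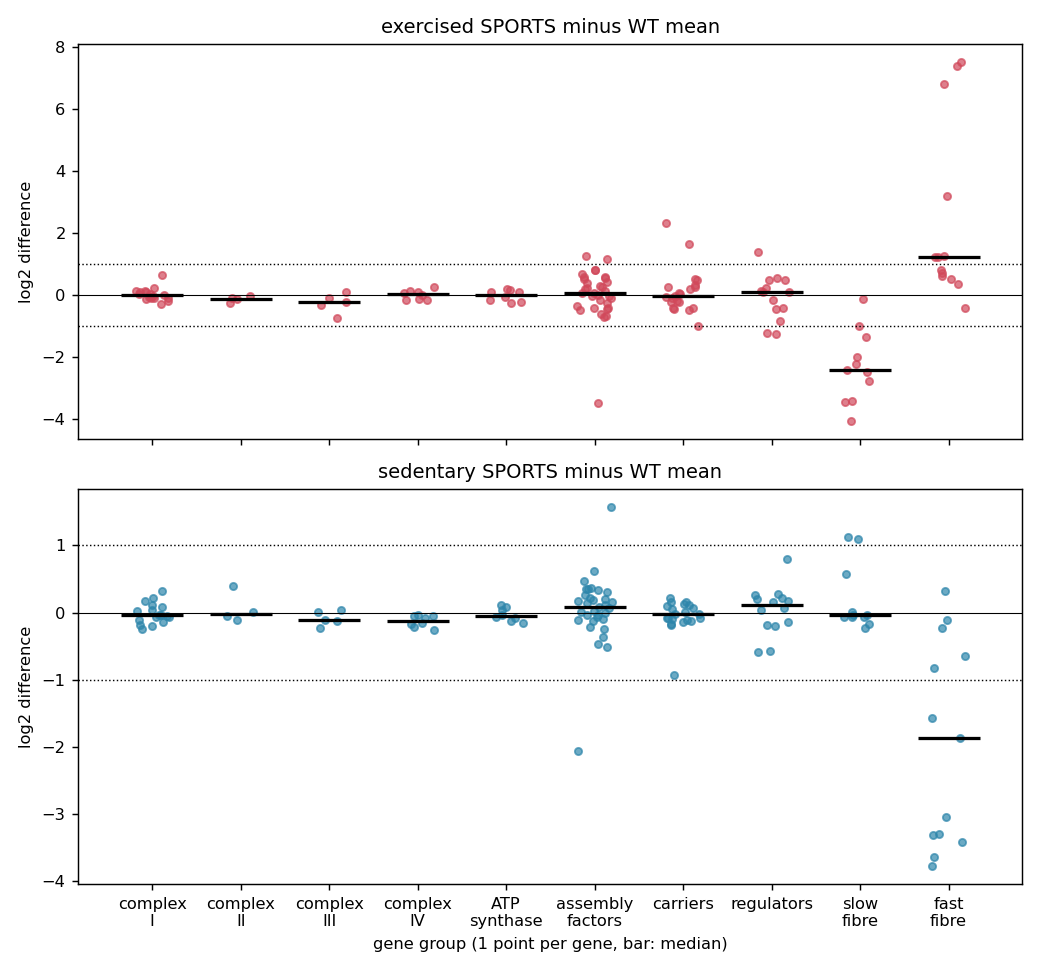
Log2 difference from the WT mean (vertical axes) of each gene in the 5 complexes and in lists of assembly factors, carriers, regulators and fibre genes (horizontal axis), on the exercised array (upper panel) and the sedentary array (lower panel). Bars are medians and dotted lines mark 2-fold. The complexes have medians of -0.23 to 0.04 on the exercised array, where slow fibre genes have a median of -2.42 and fast fibre genes one of 1.22.

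Markers of other cell types also differed between the arrays. In the order WT, WT, exercised and sedentary, the summed signal was 263, 257, 71.3 and 188 for 6 of 6 fibroblast markers. It was 89.9, 82.8, 12.1 and 43.5 for 5 of 7 tendon markers and 22.3, 16.7, 9.14 and 39.9 for 6 of 7 macrophage markers. These connective tissue lists were lowest on the exercised array, and the macrophage list was highest on the sedentary array. A linear sum mostly follows its brightest genes. Among fibroblast markers on the sedentary array, the log2 differences from WT were -1.41 in Col1a1, -0.68 in Col1a2 and -0.13 in Dcn. Col3a1, Pdgfra and Lum were at 0.32, 0.38 and 0.24, and the list median was 0.05. The tendon marker Scx was at 0.40 there, against a list median of -1.71. The sums were 21.2, 26.5, 10.1 and 19.4 for 4 of 7 adipocyte markers, 11.5, 11.9, 11.2 and 13.8 for 5 of 6 endothelial markers, and 180, 210, 135 and 106 for 3 of 5 red blood cell markers. Behind the endothelial sums, the exercised log2 differences were -2.09 in Cdh5, -0.81 in Emcn, -0.36 in Tie1, -0.03 in Pecam1 and 0.20 in Kdr. For 3 of 6 heart markers, Myh6, Myl4 and Tnni3, the sums were 582, 579, 146 and 486. The other heart markers, Nppa, Nppb and Myl7, had probes but were not well above background on at least 2 arrays. The markers Chad, Tnmd and Cilp2 (tendon), Tnni3 (heart) and Adgre1 and Csf1r (macrophage) were not well above background on the exercised array. The other measured markers of these lists, 2 of tendon, 2 of heart and 4 of macrophages, were well above background on all 4 arrays. The part of other cell types in the results on the subunit genes was not tested.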

How the data were processed

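Per the labels' protocols, total RNA was labelled with Cy3 and hybridised to Agilent arrays, and per the submitters' processing notes images were read with Agilent Feature Extraction 10.7.1.1. The authors deposited, per the file headers, the processed signal intensity of each spot and a table of log2 values. For each pair of arrays, the differences in that table correlated at r = 1 with the differences in log2 processed signal over 30015 probes. The table was centred on each probe's median, and its column medians were 0.02, -0.02, 0.17 and -0.15.

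Outlier spots were left out, and so were 352 of 30367 probes for which an array had no spot left. Spots of a probe were averaged, and each array's 75th percentile was subtracted from log2 processed signals. The probe with the highest mean stood for a gene, named through RefSeq accessions (GRCr8; 59.4% of probes had a symbol). Genes well above background on at least 2 arrays were tested with limma 3.58.1 in R 4.3.3 with Benjamini-Hochberg adjustment, called under 0.05, and the scripts were tested on simulated data. Groups came from the source names. Alternatives were median scaling, quantile normalization, normexp with an offset of 50, other filters, probe rules, the authors' table and a variance trend.

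Members and gene lists were chosen with earlier results of these data known. Values by array are given, in each complex, for the 3 genes with the largest and the 2 with the smallest exercised difference and for those called on the sedentary array. From each pathway list the 3 genes with the largest exercised difference are named (2 for fibre lists), some by their difference alone. Cell type lists are given as sums, and single markers in them were named after their values were seen. Cox5a, Ndufb8, Atp5f1a, Ndufa5, Cox7a2, Cox4i2, Ppargc1a, Perm1, Uqcr11 and Uqcrh were added after their values were seen. Adjusted p-values are those of limma.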

Additional observations from a re-analysis of the deposited data

Results flagged for a closer look

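The second probe of Uqcrb gave a signal that the values of the gene do not use, since the gene stands on its brighter probe. It was at -2.02 and -2.05 in WT, -0.52 on the exercised array and -1.86 on the sedentary array, a difference of 1.51 on the exercised array, or 2.85-fold, and of 0.17 on the sedentary array. The brighter probe differed by 0.09 on the exercised array and by -0.23 on the sedentary array. The cause of the disagreement was not tested.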

How the results depend on the processing

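No paired analysis was possible because each SPORTS group has 1 array, so that the groups compared share fewer than 2 replicate numbers. Quantile normalization gave 25 subunit genes called on the exercised array in limma. It gave exercised medians of -0.31 over all 43 genes, -0.28 (complex I), -0.31 (complex II), -0.41 (complex III), -0.38 (complex IV) and -0.37 (ATP synthase), and an exercised against sedentary median of -0.29. Its sedentary medians were 0.0019 over all 43, 0.033 (complex I), -0.017 (complex II), -0.00027 (complex IV) and 0.048 (ATP synthase). Median scaling gave 16 called and exercised medians of 0.18 over all, 0.23, 0.11, -0.0080, 0.26 and 0.23 in the same order, and an exercised against sedentary median of 0.20. Its sedentary medians were -0.024 over all, 0.0096 (complex II), -0.092 (complex IV) and -0.027 (ATP synthase). The normexp background gave 5 called, exercised medians of -0.045 (complex I), -0.12 (complex II) and -0.36 (complex III), and sedentary medians of 0.0041 (complex I) and 0.0016 (complex II). Requiring detection on all 4 arrays gave 1 called on the sedentary array and 7 on the exercised array, and a variance trend gave 6 and 14. The mean of all probes gave a sedentary complex III median of -0.028, and the authors' table gave complex II medians of -0.12 and -0.024 on the exercised and sedentary arrays. With Ndufa4 counted in complex IV, that complex had medians of 0.076 and -0.082. Leaving out either WT array gave sedentary medians of -0.089 to -0.038 over all, -0.081 to -0.0023 (complex I), -0.023 to -0.018 (complex II) and -0.095 to -0.020 (ATP synthase), and exercised medians of -0.12 to -0.11 (complex II) and -0.023 to 0.014 (ATP synthase). With SPORTS against WT, leaving out the sedentary array gave 3 subunit genes called and leaving out any other array gave 0. The calls of the fit with 3 groups could not be fitted without a WT array. None of the 3 calls of single subunit genes changed direction, but differences that were not called did. With quantile normalization 6 turned and were called on the exercised array, namely Ndufb3 (-0.28), Ndufb9 (-0.29), Cox6c (-0.47), Atp5f1a (-0.31), Atp5po (-0.34) and Atp5mc1 (-0.40). Another 11 turned without a call: Ndufa4 (-0.27), Ndufa10 (-0.15), Ndufs4 (-0.11), Ndufs8 (-0.044), Ndufv2 (-0.32), Uqcrb (-0.18), Cycs (-0.021), Cox5a (-0.10), Cox6a2 (-0.087), Cox6b1 (-0.074) and Atp5f1d (-0.0077). With median scaling 18 turned on that array without a call: Ndufa1 (0.20), Ndufa2 (0.14), Ndufa5 (0.028), Ndufa9 (0.11), Ndufb5 (0.17), Ndufb8 (0.14), Ndufv1 (0.11), Sdha (0.10), Sdhc (0.12), Sdhd (0.18), Uqcrc2 (0.13), Cox4i1 (0.11), Cox5b (0.070), Cox7b (0.22), Cox8b (0.069), Atp5f1b (0.010), Atp5f1c (0.068) and Atp5pb (0.15). The normexp background turned Ndufa4 (-0.0026), Ndufa10 (-0.045) and Ndufb3 (-0.0073), and the mean of all probes turned Ndufs4 (-0.30). On the sedentary array the turns, all without a call, were Ndufa5 (0.065), Ndufa9 (0.0074), Ndufv2 (0.033), Sdhc (-0.0083), Cox5b (0.0043), Cox6a2 (0.13), Cox8b (0.10), Atp5f1a (0.095) and Atp5pb (0.0019) with quantile normalization, Ndufa9 (0.0012) with median scaling, and Ndufa4 (0.011), Ndufa9 (0.0041), Uqcrc2 (-0.0050) and Atp5po (-0.023) with normexp. Of the other values, 255 kept their direction and side of the threshold on the exercised array, 48 passed it anew and 2 lost it, against 323, 7 and 0 on the sedentary array. The causes were not tested.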

Other observations

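Ndufs4, an accessory subunit of complex I, has a second probe that was at -0.26 and -0.10 in WT, -0.88 on the exercised array and -0.32 on the sedentary array. Its exercised difference was -0.70, against 0.10 for the brighter probe that stands for the gene. Over the subunit probes printed 10 times on the array, the median SD between spots was 0.05 on the log2 scale. The largest SD was 0.11 among the 10 of these probes that stand for a gene. In the second probe of Uqcrb it reached 0.13.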
